A study of Mus musculus with 2 samples.

Results

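The genes described here encode 4 factors by which osteoblasts, the bone-forming cells, govern osteoclasts, the cells that resorb bone. They are Tnfsf11 (RANKL), Tnfrsf11b (osteoprotegerin, OPG), Csf1 (macrophage colony-stimulating factor) and Il34 (interleukin 34). Every probe set that the platform annotation assigns to exactly 1 of these genes was taken, which gave 9 probe sets of the 34945 with a single gene, and 4 genes of 18193. A probe set is a group of short probes against 1 transcript. Primary osteoblasts had been isolated from skull vaults (calvaria) of CD1 mice aged 7 days. One culture had been treated with 2 µM PP1, an inhibitor of c-Src and related tyrosine kinases, for 24 h, and the other with the vehicle DMSO for 24 h. Both had first been starved for 24 h in medium with 0.25% bovine serum albumin in place of 10% fetal bovine serum. The design asks which transcripts differ between cells with and without the inhibitor. Each condition was measured on 1 Affymetrix mouse array, so there was no replicate, no test between the conditions was possible, and every value describes these 2 arrays. The labels do not say how many animals gave cells.

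RANKL is a membrane-bound or shed ligand of the tumour necrosis factor family. It binds the receptor RANK on macrophage-lineage precursors and drives their differentiation into osteoclasts. OPG is a secreted decoy receptor that captures RANKL, so the balance of both is commonly read as a measure of how far osteoblasts favour resorption. Csf1 and Il34 are unrelated in sequence but share the receptor encoded by Csf1r, through which precursors survive and proliferate.

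PP1-treated osteoblasts had lower signals for Tnfsf11 and for Tnfrsf11b, by 2.24-fold and 2.01-fold, and a 3.02-fold higher signal for Il34. The brightest probe set of Csf1 differed by 1.02-fold. RANKL and its decoy were thus both lower, and the ratio of their signals was 0.90 times that in the DMSO culture by the brightest probe sets. At least 2-fold lower were 2 of the 4 genes and at least 2-fold higher was 1, against 1.55% and 2.97% of all 12111 measured genes. The median log2 ratio of the 4 genes was -0.52, beside 0.01 over all measured genes, but 0.20 with the highest instead of the brightest probe set of Csf1, so its sign is not settled. All ratios are PP1 minus DMSO on the log2 scale, after the PP1 array had been multiplied by 1.68 to give both arrays the same trimmed mean. A floor of 31.7, the median signal of both arrays together, replaced any lower signal before log2 was taken. In 4745 genes with several sets clear of the floor in both conditions, the log2 ratios of a gene's sets had an SD of 0.41. This spread stands beside the ratios in place of a replicate error, and it does not include variation from culture to culture. Of the 8 member sets above the floor, 2 were at least 2-fold lower and 2 at least 2-fold higher, against 1.44% and 4.14% of all 24180 such probe sets.

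**Figure D1:**
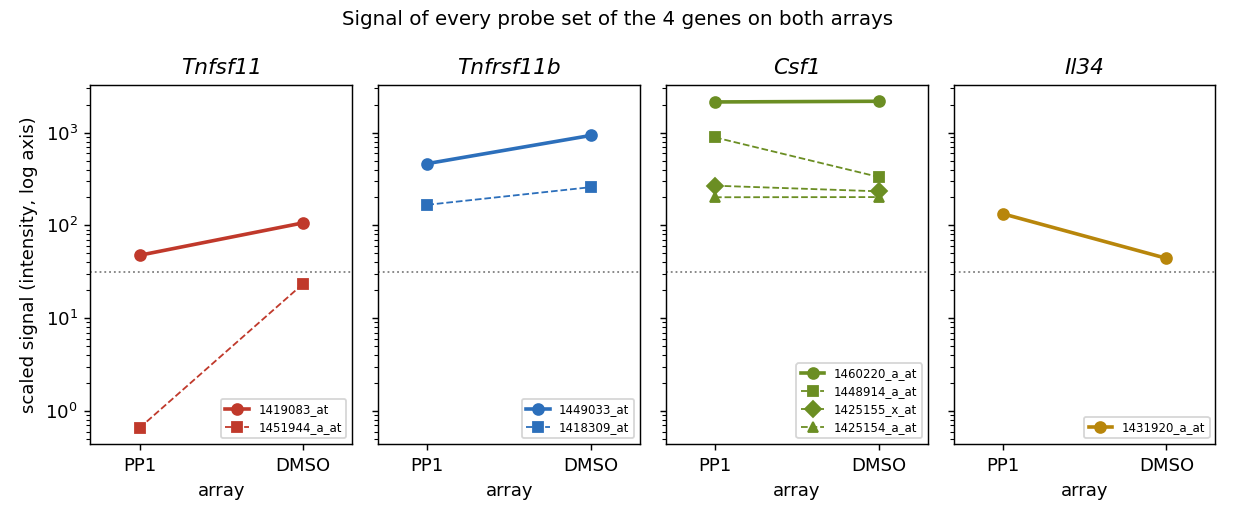
Scaled signal (intensity, log axis) of each of the 9 probe sets on the PP1 array and the DMSO array, 1 panel a gene; the solid line is the brightest probe set of the gene and the dotted grey line the floor of 31.7. The Tnfsf11 set above the floor and both Tnfrsf11b sets are lower with PP1, the other Tnfsf11 set is under the floor on both arrays, the Il34 set is higher, and the Csf1 sets are split, with 1448914_a_at at 887.9 with PP1 against 332.7 with DMSO.

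Tnfsf11 encodes RANKL, the ligand that OPG captures. Its brighter probe set, 1419083_at, had a scaled signal of 47.6 on the PP1 array, against 106.5 on the DMSO array. These signals are 1.5 and 3.36 times the floor, so the gene was dim on both arrays. The log2 ratio of -1.16 is 2.81 times the SD between probe sets, and 115 of 12111 measured genes had a lower one. Among the 4240 measured genes with a mean signal under 4 times the floor, 1.67% were at least 2-fold lower. The other Tnfsf11 probe set, 1451944_a_at, lay under the floor on both arrays, with 0.657 for PP1 against 23.6 for DMSO. No fold is given for it, since signals under the floor are not ordered. Tnfsf11 therefore rests on 1 probe set, and it was short of 2-fold with the mean over both sets (-0.62) and with log2(value + 32) (-0.80).

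The 250 bases before the start of Tnfsf11 and of Csf1 are shown because these 2 genes gave different ratios and have a promoter in the RefSeq table (build GRCm38.p6). Tnfsf11 lies on the minus strand, and the bases are at chr14:78308044-78308293. Csf1 also lies on the minus strand, with its bases at chr3:107760470-107760719. Capitals mark matches, on either strand, to any of 6 motifs. These were TATAA (TATA box), TGANTCA (AP-1), TGACGTCA (CREB), GGG and TTCC with any 3 bases between (NF-kB, its spelling set after these sequences were seen), AGGTCA (nuclear receptor core site) and GGAATG (TEAD).
Tnfsf11: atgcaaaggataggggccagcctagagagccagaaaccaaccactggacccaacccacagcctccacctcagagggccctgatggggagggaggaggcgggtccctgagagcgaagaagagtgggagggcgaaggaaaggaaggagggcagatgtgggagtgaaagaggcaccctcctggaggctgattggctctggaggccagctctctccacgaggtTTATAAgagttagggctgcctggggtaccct
Csf1: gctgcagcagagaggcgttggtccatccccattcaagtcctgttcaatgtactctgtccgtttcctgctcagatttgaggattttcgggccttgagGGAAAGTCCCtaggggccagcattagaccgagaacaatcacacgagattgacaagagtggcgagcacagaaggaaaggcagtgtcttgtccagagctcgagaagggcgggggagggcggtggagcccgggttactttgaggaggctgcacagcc
The Tnfsf11 stretch held a TATA box, read on both strands as overlapping matches between 31 and 26 bases before the start, and TATAA occurs in 22.8% of 32851 promoter windows of that length. The Csf1 stretch held 1 match, to the NF-kB letters on the opposite strand, from 154 to 145 bases before the start, and 4.65% of the windows hold that motif. Neither stretch held AP-1, CREB, nuclear receptor or TEAD letters, which occur in 1.55% (TGACGTCA) to 14.0% (AGGTCA) of the windows. A match is not shown to be bound, and the lack of one says only that these letters are not in these 250 bases.

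Tnfrsf11b, the decoy receptor, was well above the floor and had 2 probe sets. The brighter, 1449033_at, had a scaled signal of 463.3 with PP1, against 932.4 with DMSO. The dimmer, 1418309_at, had 166.6 with PP1, against 258.4 with DMSO. Both were lower in the PP1 culture, with log2 ratios of -1.01 and -0.63. They were designed on the same source sequence, per the platform annotation, so they are not separate sources. Only the brighter set lay past 2-fold, by a narrow margin at 2.01-fold lower, and the dimmer was 1.55-fold lower. The sets differed by 0.38, which is within the SD of 0.41 between probe sets of a gene. With loess scaling or the mean over both sets the gene was at -0.92 and -0.86, short of 2-fold. By the brighter set, 182 of 12111 measured genes had a lower ratio, and among the 7871 genes with a mean signal of at least 4 times the floor, 1.49% were at least 2-fold lower and 2.13% at least 2-fold higher.

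The RANKL to OPG signal ratio was 0.103 with PP1 and 0.114 with DMSO by the brightest probe set of each gene. With the dimmer OPG set in its place it was 0.286 with PP1 and 0.412 with DMSO. The level of such a ratio depends on how strongly each probe set binds its target, so only the difference between the arrays can be read, and a factor applied to a whole array cancels in it. That difference was -0.15 on the log2 scale by the brightest sets and -0.53 by the other pairing, or 0.90 and 0.69 times the DMSO ratio. Both lie within 0.58, the SD expected for a difference of 2 such log2 ratios from the spread between probe sets. At this precision no difference in the ratio could be told from that spread, and the data do not show that it was equal. Its sign turned to 0.24 with the mean over all probe sets and to 0.16 with log2(value + 32) in place of the floor. Both turns follow from how the dim Tnfsf11 is handled. The mean counts its set under the floor with a ratio of 0. Adding 32 moved Tnfsf11 from -1.16 to -0.80, but Tnfrsf11b only from -1.01 to -0.96.

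**Figure D2:**
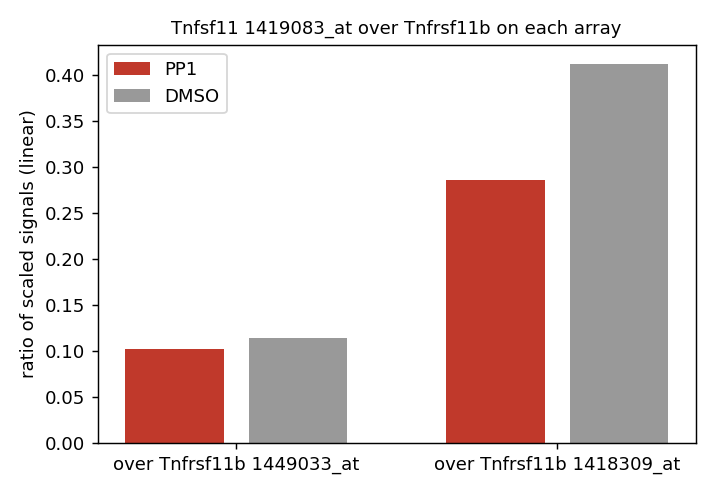
Ratio of the scaled signal of Tnfsf11 (1419083_at) to that of each Tnfrsf11b probe set (linear axis from 0), 1 bar an array. The PP1 bar is lower than the DMSO bar in both pairs, 0.103 against 0.114 with 1449033_at and 0.286 against 0.412 with 1418309_at.

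Il34 had the highest ratio of the 4 genes. Its only probe set, 1431920_a_at, had a scaled signal of 133.4 with PP1, against 44.2 with DMSO. The DMSO signal was 1.39 times the floor, so the fold of 3.02 is imprecise, while the PP1 signal was 4.21 times the floor. The log2 ratio was 1.60, and 57 of 12111 measured genes had a higher one. At least 2-fold higher were 4.53% of the 4240 dim genes, more than the 1.67% that were at least 2-fold lower. Il34 was higher with PP1 without any scaling too, with 79.4 as deposited for PP1 against 44.2 for DMSO, a 1.80-fold difference. As deposited, the brightest sets of the other genes were lower with PP1, by 3.76-fold for Tnfsf11, 3.38-fold for Tnfrsf11b and 1.71-fold for Csf1. The Csf1 set 1448914_a_at was 1.59-fold higher. These unscaled folds include the dimness of the whole PP1 array, with a trimmed mean of 94.1 against 158.1 for DMSO.

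Csf1, the other ligand of that receptor, had 4 probe sets, all well above the floor. Probe set 1460220_a_at had 2140 with PP1 against 2176 with DMSO. Set 1425154_a_at had 201.0 with PP1 against 201.9 with DMSO, and 1425155_x_at had 267.8 with PP1 against 232.8 with DMSO. These 3 sets lay between -0.02 and 0.20 on the log2 scale, and 1425154_a_at and 1425155_x_at share a source sequence. The fourth, 1448914_a_at, had 887.9 with PP1 against 332.7 with DMSO, or a log2 ratio of 1.42. It was designed on the same source sequence as 1460220_a_at, per the platform annotation, yet their ratios lay 1.44 apart, 3.49 times the SD between probe sets. The array therefore gives no single value for Csf1. Set against Il34, the ratio of Il34 exceeded that of Csf1 by 1.62 with the brightest Csf1 set, but by 0.18 with 1448914_a_at.

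**Figure D3:**
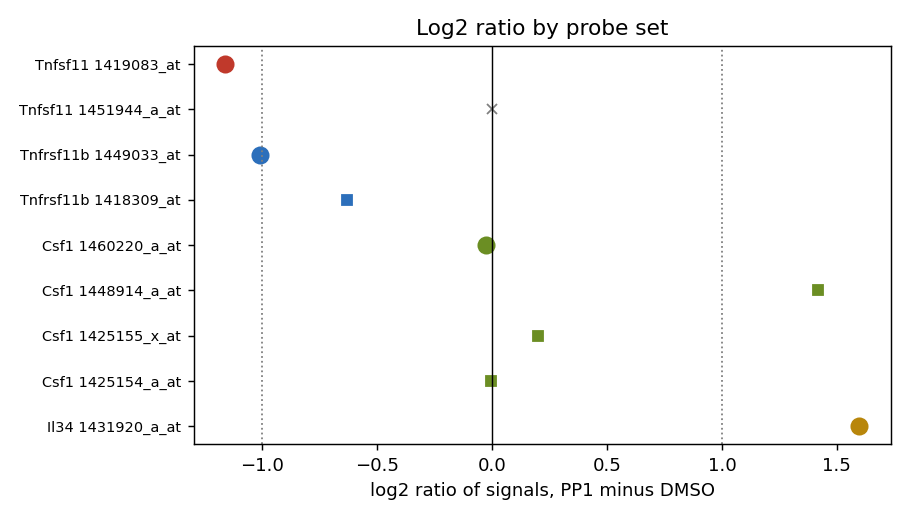
Log2 ratio of signals, PP1 minus DMSO, for each of the 9 probe sets, with dotted lines at 2-fold; large circles are the brightest set of each gene, squares the others, and the grey cross is the Tnfsf11 set under the floor on both arrays, drawn at 0. Tnfsf11 lies at -1.16, the Tnfrsf11b sets at -1.01 and -0.63, the Csf1 sets from -0.02 to 1.42 and Il34 at 1.60.

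Nearest to each gene in scaled log2 signal over the 2 arrays, as the distance between both pairs of values, were 5430416N02Rik (0.092) and Ret (0.13) for Tnfsf11, Mybbp1a (0.042) and Nhp2 (0.045) for Tnfrsf11b, Cops9 (0.018) and Ctdsp2 (0.020) for Csf1, and Rusc2 (0.044) and Arvcf (0.060) for Il34. With 2 arrays such likeness says little beyond a similar brightness and ratio.

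Over all 12111 measured genes, 1.55% were at least 2-fold lower and 2.97% at least 2-fold higher, with a median of 0.01. These shares stand beside each list count below, and a count of 0 or 1 in so small a list says little beside them. Among 20 measured osteoblast factors that promote osteoclast formation, 4 were at least 2-fold lower with PP1 and 2 at least 2-fold higher, with a median of -0.06. Besides Tnfsf11, the lower ones were cyclooxygenase 2 (Ptgs2) and the cytokines Il6 and Lif. Cyclooxygenase 2 makes the precursor of prostaglandin E2, which induces RANKL. The synthase Ptges, which turns this precursor into prostaglandin E2, was at 0.69, or 0.93 by its other set above the floor. Il6 and Lif act through the shared receptor chain encoded by Il6st. Ptgs2 had 25.1 with PP1, under the floor, against 377.3 with DMSO, so it was at least 11.9-fold lower, but a second set for it stood at -0.33. Il6 had 98.9 with PP1 against 275.7 with DMSO. Lif had 32.2 with PP1, close to the floor, against 74.2 with DMSO. Higher with PP1 besides Il34 was the chemokine Ccl5, which recruits leukocytes, with 113.1 against 40.2. Without the 3 member genes in this list, 3 of 17 were lower and 1 was higher. These counts rest on the brightest set of each gene, and the sets of Wnt5a above the floor ran from 0.04 to 1.29. Close to 2-fold but short of it were Tgfb1 at -0.98 and Cxcl12 at 0.97 (its 3 sets from -0.34 to 0.97).

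Among 13 measured factors that restrain osteoclasts, 3 were at least 2-fold lower and 0 at least 2-fold higher, with a median of 0.10. The lower ones besides Tnfrsf11b were the cytokine Il33, with 77.9 for PP1 against 198.9 for DMSO, and the ligand Wnt4, with 32.6 for PP1 against 81.7 for DMSO. The second Wnt4 probe set gave -0.43. Just under 2-fold, in opposite directions, were the secreted protein Cthrc1 at -0.91 (1868 with PP1 against 3507 with DMSO) and the cytokine Il18 at 0.91. Sema3a, a secreted semaphorin that keeps osteoclast precursors from differentiating, was at 0.82, or 0.12 by its other set above the floor. The count of 0 higher rests on the brightest set of each gene. The 5 sets of Sfrp1 ran from -0.36 to 2.15, and the 4 sets of Efnb2 from 0.21 to 1.23.

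Receptors of the 4 factors were mostly close to the bulk of genes. Csf1r, the shared receptor of Csf1 and Il34, had 1296 with PP1 against 1301 with DMSO, and its 3 probe sets ran from -0.14 to 0.10. Tnfrsf11a, which encodes RANK, was at the edge of measurement, with 28.6 under PP1 against 36.6 under DMSO. Lgr4, a further receptor for RANKL, was at 0.24. The additional Il34 receptors Ptprz1 and Sdc1 were at -0.85 (46.0 against 83.1, dim) and -0.39, and the 4 sets of Sdc1 ran from -0.72 to 1.10. Of 25 measured receptors and signal proteins in all, 1 was at least 2-fold higher (Nfkb2 at 1.09, or 0.01 by its other set) and 1 at least 2-fold lower (the kinase Tec at -1.12), with a median of -0.03.

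The proteases and inhibitors that govern shedding of RANKL or Csf1 held 0 of 10 genes past 2-fold in either direction (median -0.22). Timp1, an inhibitor of metalloproteases, was at -0.58 and Mmp14, a membrane metalloprotease, at 0.52 as the farthest from 0. This count rests on the brightest set of each gene, and other sets reached 1.90 for Mmp14, 1.80 for the inhibitor Timp2 and 1.59 for the shedding protease Adam17. Of 24 measured regulators of Tnfsf11 transcription 0 were at least 2-fold higher and 0 at least 2-fold lower (median -0.03). The farthest were the receptor Lifr at 1.00, just under the threshold (0.27 by its other set), and the transcription factor Klf2 at -0.93. This count too rests on the brightest sets. The 4 sets of Il6st ran from 0.84 to 1.62, and those of Nr4a2 above the floor from 0.17 to 1.06. The vitamin D receptor Vdr (0.02), the parathyroid hormone receptor Pth1r (-0.23) and Stat3 (-0.04), named after their values were seen, lay closer to 0. Of 19 measured regulators of Tnfrsf11b transcription, 1 was at least 2-fold lower, the Notch target Hes1 at -1.17, and the median was -0.09. Tcf7l2, which carries Wnt signals to genes, was next in size at 0.80. The 3 sets of Smad1 ran from -0.24 to 1.01.

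**Figure D4:**
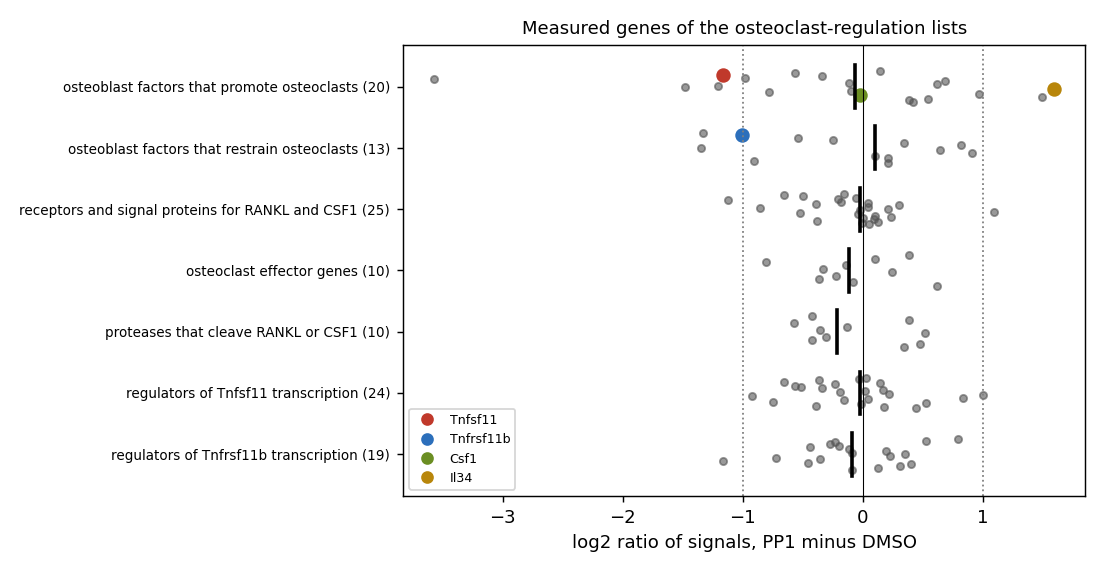
Log2 ratio, PP1 minus DMSO, of each measured gene in 7 lists, with the number measured in brackets; the black bar is the median of a list, dotted lines mark 2-fold and the 4 member genes are coloured. The medians lie between -0.22 and 0.10, and genes past 2-fold are mostly in the upper 2 lists.

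Markers of cell types that bear on these factors were also read in the cultures. Of the osteoblast markers, 8 were measured, with 4 above 0, 4 below and a median of 0.09. Col1a1 had 9931 under PP1 against 7558 under DMSO, and Alpl had 242.3 against 187.5. The lower ones were bone sialoprotein (Ibsp), with 37.7 against 159.1, Sp7 at -0.43, Pth1r at -0.23 and Dlx5 at -0.20. Bglap, Spp1 and Runx2 were not analysed here. Macrophage markers ran from the bright Lyz2, with 6297 for PP1 against 4892 for DMSO, to the dim Itgam, with 49.5 against 38.1, and Aif1 and Cd163 were under the floor on both arrays. The 15 measured ones of 17 had a median of 0.06, with 9 above 0 and 6 below. Among the lower were C1qb at -0.76 (its 3 sets from -1.16 to -0.17), C1qa at -0.56 and Mpeg1 at -0.41. The summed signal was 19276 with PP1 against 17067 with DMSO, with Lyz1 and Lyz2 as its largest terms. By the brightest sets, Mrc1 at 1.11 was the only marker past 2-fold. Of the osteoclast effector genes, 10 of 15 were measured with 0 past 2-fold (median -0.11). Calcr, Dcstamp, Ocstamp, Itgb3 and Slc9b2 lay under the floor on both arrays, while Acp5 had 166.3 with PP1 against 108.5 with DMSO and Mmp9 had 54.5 against 95.5. T and B cells, another source of RANKL, were not clearly detected. Of 8 markers, only Cd8a was above the floor, by 1 of its 5 probe sets, with 48.4 for PP1 against 44.8 for DMSO. Both signals were close to the floor. The other markers, Cd3e and Cd79a among them, were under the floor on both arrays. Among osteocyte markers, 5 of 6 were under the floor on both arrays, Sost and Dmp1 among them. Of these marker lists the stromal and fibroblast one had the highest median, at 0.55, with 8 of 10 genes above 0. Its summed signal was 14412 with PP1 against 7859 with DMSO. The largest terms with PP1 were Cxcl12 (5810 against 2969) and Scara5 (3045 against 965.2). The 3 sets of Cxcl12 ran from -0.34 to 0.97. Scara5 (1.66) and Twist1 (1.54) were at least 2-fold higher. The part of these cells in the ratios of Il34, Tnfsf11 and Tnfrsf11b was not tested, and in bulk RNA fewer cells of a type and less RNA per cell cannot be told apart.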

How the data were processed

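The deposited values are linear intensity signals of 45101 probe sets on 2 arrays, which the authors made with MAS5 per the submitters' processing notes. Version, target scaling and detection calls are not known here. The log2 ratio of the 3' to the 5' control set for Gapdh was 0.19 with PP1 and 0.70 with DMSO. For beta-actin it was 0.69 with PP1 and 0.55 with DMSO. The bearing of this on the ratios here was not tested. Of 45037 non-control probe sets, 34945 had 1 gene in the platform annotation, 932 had several and 9160 none here. Symbols were updated by gene identifier through a RefSeq table of GRCm38.p6, which matched 34741.

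Trimmed means (2% at each end) as deposited were 94.1 for PP1 and 158.1 for DMSO, and the PP1 array was scaled to the DMSO array. A gene takes the values of its brightest probe set (mean log2 signal before flooring) and is measured when that set exceeds the floor on either array, as it did for 12111 genes. A gene past 2-fold is called higher or lower; no p-value is given with 1 array per group. The number of arrays limits the precision. The 4 members and all gene lists were chosen with earlier results of these data known. Named are all members, each list's genes past 2-fold or otherwise its 2 farthest from 0, receptors by name, and the 2 nearest genes in signal; others, marker genes included, were chosen after their values were seen. The steps were tested on simulated data. Alternatives were other scalings, floors, probe set choices, a pseudocount and other fold thresholds. Python 3.11.15 with pandas 2.3.3 and statsmodels 0.14.6 was used.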

Additional observations from a re-analysis of the deposited data

How the results depend on the processing

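Scaling to another quantity shifted the median of all genes by -0.71 (as deposited), -0.17 (median) and -0.80 (hybridization controls), and ratios here are relative to that shift. No member past 2-fold changed direction under any of 10 alternatives that gave a value, but several could hardly have changed it. A constant factor on an array is largely taken out with the shift of the median. Leaving out shared probe sets kept the same brightest set for each member, and Il34 has only 1 set to choose from. Tnfrsf11b ran from -1.05 to -0.86 and so fell short of 2-fold under some. Tnfsf11 was -0.62 as the mean over both its probe sets, the one under the floor included, and Il34 was 1.12 with log2(value + 32). Csf1 ran from -0.06 to 0.36. The RANKL to OPG difference ran from -0.37 (loess) to 0.24 (mean over all probe sets, the Tnfsf11 set under the floor included). Its sign was not settled, since these values lay within the spread between probe sets. With a floor at the 75th percentile Tnfsf11 and Il34 had no value, being under it on both arrays. No paired analysis was possible because each condition has 1 array.

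Counts of genes past the threshold in either direction that moved by over 1.5 times are given here, and the rest stayed within that. The promoting list, 6 in the report, had 2 at the higher floor, 11 at 1.5-fold and 2 at 3-fold. The restraining list, 3 in the report, had 0 at the higher floor, 1 with the median or mean over probe sets or the pseudocount, 7 at 1.5-fold and 0 at 3-fold. Receptors and signal proteins, 2 in the report, had 0 at the higher floor and with the pseudocount, 1 with the median or mean over probe sets, 4 at 1.5-fold and 0 at 3-fold. Proteases, 0 in the report, had 1 without a floor and with the median or mean over probe sets. Regulators of Tnfsf11, 0 in the report, had 1 with loess, without a floor, at the higher floor and with the median or mean over probe sets, and 5 at 1.5-fold. Regulators of Tnfrsf11b, 1 in the report, had 2 without a floor, 0 at the higher floor, 3 at 1.5-fold and 0 at 3-fold. Osteoblast markers, 1 in the report, had 0 at the higher floor. Osteoclast effector genes, 0 in the report, had 2 at 1.5-fold. Macrophage markers, 1 in the report, had 3 at 1.5-fold and 0 at 3-fold. Stromal markers, 2 in the report, had 1 with the mean over probe sets, 4 at 1.5-fold and 1 at 3-fold. The fold thresholds and the higher floor change the criterion or the genes tested; for the others the cause was not tested.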
